A study of Mus musculus with 16 samples.

Results

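The radiation response of wild-type (WT) myeloid progenitors is the difference between 2 arrays of irradiated WT myeloid progenitor (MP) cells and 2 arrays of unirradiated WT MP cells. These 4 arrays were taken by their labels from the 16 arrays of the series. MP cells are bone marrow cells without lineage markers and without Sca1 that carry c-Kit, and they give rise to granulocytes, monocytes, red cells and megakaryocytes. The irradiated group is WT MP cells 2.5 h after 5 Gy of gamma radiation, and the unirradiated group is WT MP cells from mice that were not irradiated. For comparison, the same pair of groups exists for MP cells of Parp-2-/- mice, which lack the DNA damage sensor Parp-2, and for WT LSK cells, the Sca1-positive, c-Kit-positive fraction that holds the haematopoietic stem cells. All mice were on the C57BL/6J background, and every array carries RNA from a pool of at least 3 mice, so that 2 pools per group measure the spread between pools and not between single mice. A pool is a sorted mixture of progenitor stages, and neither the age nor the sex of the mice is given in the labels.

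Ionising radiation breaks both DNA strands, and the kinase ATM then stabilises the transcription factor p53. Within hours p53 raises genes that hold the cell cycle (the p21 inhibitor), that return p53 to its resting level (Mdm2, Ppm1d) and that start apoptosis through death receptors and BCL2 family proteins. Cells held before mitosis also lower the genes of the mitotic programme, many of which share CHR and CCAAT elements near their start sites. Haematopoietic progenitors divide fast and die readily after radiation, which is why bone marrow failure is an early effect of whole-body exposure.

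Messenger RNA was measured on Affymetrix Mouse Gene 1.0 ST arrays, and all levels are log2 intensities as deposited. The labels were checked first. Kit, which encodes the sorted surface receptor c-Kit, read 8.86 and 8.86 in irradiated WT MP cells, against 9.02 and 9.06 in unirradiated ones, all far above the array medians of 4.76 to 4.84. LSK cells carry c-Kit as well, so this does not separate MP from LSK arrays. Ly6a, which encodes Sca1, had no row of its own, so the absence of Sca1 was not checked. Marker lists of mature cells that the sort should remove were also read. Of these, 11 of 15 B lymphocyte and 13 of 19 T and NK cell genes lay below the array median on all 4 arrays. So did 12 of 17 dendritic cell, 10 of 17 mature neutrophil and 9 of 19 macrophage genes. Dim rows are common on these arrays: a filter on them kept 13017 of the 22961 tested rows. The marker counts are therefore only a weak check of the sort. Parp2 read 7.98 to 8.40 on the 4 WT MP arrays and 6.74 to 7.11 on the 4 Parp-2-/- MP arrays, a difference of 1.44 ± 0.12 (WT minus Parp-2-/-, SE; limma, adjusted p = 0.0106). These 8 values did not overlap between the genotypes. The 4 WT MP arrays correlated at 0.981 to 0.994 over the tested rows. Unirradiated pool 2 stood apart in its sex-linked transcripts. Eif2s3y, a gene of the Y chromosome, read 2.04 and 2.04 in irradiated WT MP cells, against 2.08 and 6.27 in unirradiated ones, and Kdm5d, also Y-linked, read 3.17 and 3.14 in irradiated cells, against 3.27 and 4.80 in unirradiated ones. Xist, the RNA of the inactive X chromosome, read 9.82 and 9.98 in irradiated cells, against 9.72 and 9.15 in unirradiated ones. Transcripts of both kinds were thus detected in unirradiated pool 2, whereas Y-linked ones stayed near the floor in the other 3 pools. Unirradiated WT LSK pool 2 had the same pattern, with Eif2s3y at 4.73 against 2.01 to 2.43 on the 14 arrays other than these 2. The values of unirradiated MP pool 2 also spread less over the rows (SD 2.05) than those of the other 3 (2.12 to 2.13). The part of this pool's make-up in the results was not tested, and counts without it are given beside the lists they move.

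At 2.5 h after 5 Gy, 390 of 22961 tested rows had passed the test in WT MP cells, which is 1.7% of them. Of these, 307 rose (1.34%) and 83 fell (0.361%). Rises were also larger: 205 rises and 42 falls reached 2-fold, and 40 rises and 10 falls reached 4-fold. Among the gene lists, rises were most frequent in the p53 target lists, and falls in the lists of mitosis, erythroid and immediate early genes; several of the largest single changes, such as those of Tnip3, Tlcd4 and Ctse, belong to none of these lists. Calls required an adjusted p below 0.05 (limma, two-sided, Benjamini-Hochberg over all tested rows), and changes are log2 differences, irradiated minus unirradiated, ± SE with n = 2 pools per group. In all 390 called rows the irradiated values lay apart from the unirradiated ones, which a call largely requires and which is no separate support. The count rested on each pool: it was 150 without irradiated pool 1, 112 without irradiated pool 2, 474 without unirradiated pool 1 and 188 without unirradiated pool 2. In RNA pooled from many cells, fewer cells of a type and less RNA per cell cannot be told apart.

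**Figure D1:**
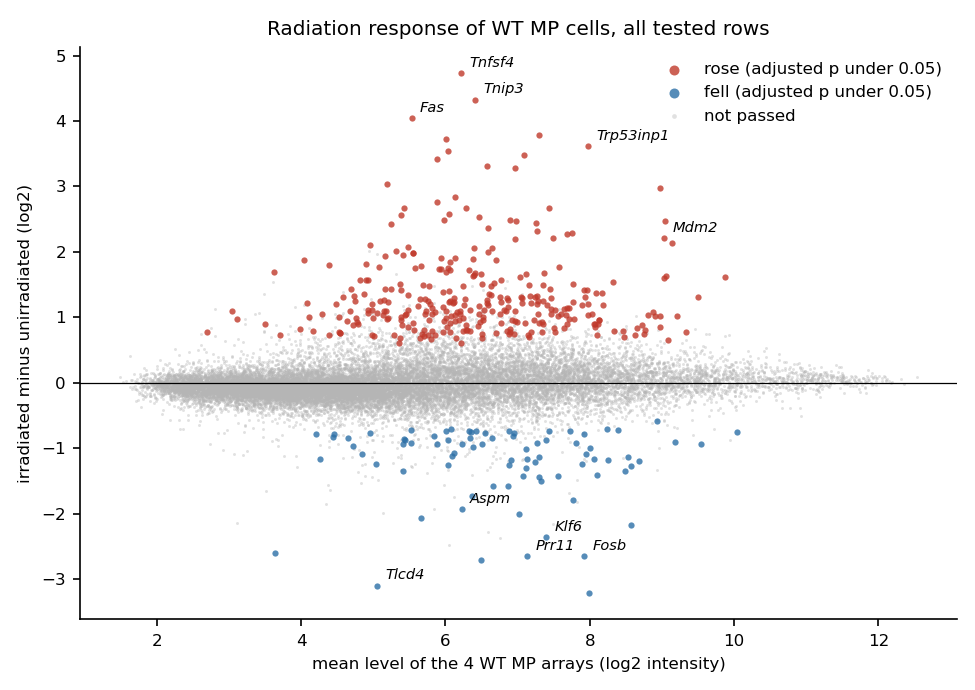
Change in WT MP cells (irradiated minus unirradiated, log2, vertical axis) against the mean level of the 4 WT MP arrays (log2 intensity, horizontal axis) for the 22961 tested rows, with the 307 rows that rose in red, the 83 that fell in blue and the others in grey. The rises reach 4.73 on the log2 scale (Tnfsf4), and called rows lie at all but the highest levels.

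Among genes on rows with 1 symbol the largest rise was that of Tnfsf4, which encodes OX40 ligand, a co-stimulatory ligand of the TNF family. It read 8.43 and 8.73 in irradiated WT MP cells, against 3.68 and 4.01 in unirradiated ones, where it lay below the array median. The pools of each group were close together and far from the other group, and the rise of 4.73 ± 0.16 (adjusted p = 4.94e-06) is a lower bound because the unirradiated level is not shown to be above background. Tnip3, an inhibitor of NF-kappaB signalling, read 8.45 and 8.70 in irradiated cells, against 4.21 and 4.28 in unirradiated cells, likewise a lower bound at 4.33 ± 0.38 (adjusted p = 0.00069). Mybl1, a MYB family transcription factor, read 8.21 and 8.26 in irradiated against 4.91 and 4.94 in unirradiated cells (3.31 ± 0.14, adjusted p = 1.22e-05). Prrg4, a vitamin K-dependent membrane protein, read 9.16 and 9.21 in irradiated cells, against 5.77 and 5.02 in unirradiated cells (3.79 ± 0.23, adjusted p = 0.000109). For each of these genes the gap between pools of a group was small beside the change.

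**Figure D2:**
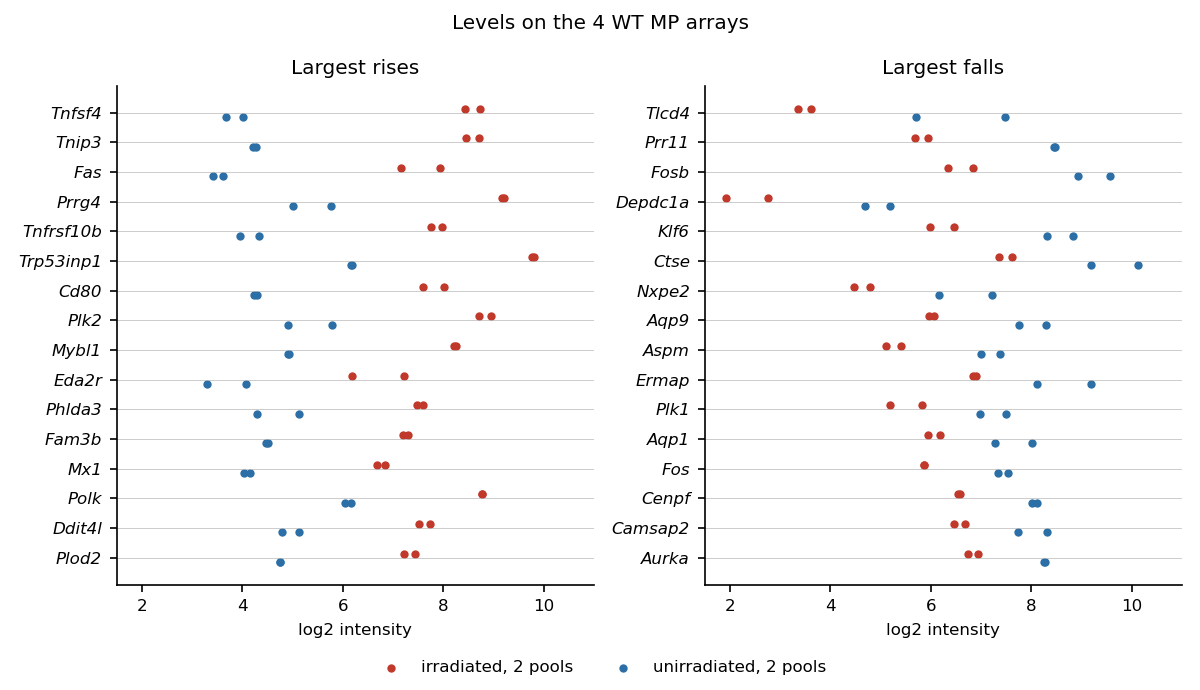
Levels (log2 intensity, horizontal axis) of the 16 genes with the largest rises (left) and the 16 with the largest falls (right) that the naming rule took, with the 2 irradiated WT MP pools in red and the 2 unirradiated pools in blue. The rule took only genes in which the red and blue points are apart, and among them the unirradiated pools of Tlcd4 (5.70 and 7.48) show the widest spread.

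Genes that p53 is known to switch on rose in large part. Of 38 measured genes for cell cycle arrest and feedback, 17 rose and 0 fell (background 1.34% rising), with a list median of 0.69 against -0.04 over all tested rows. Mdm2, the ubiquitin ligase that degrades p53, read 9.99 and 10.28 in irradiated WT MP cells, against 7.98 and 7.87 in unirradiated ones (2.21 ± 0.14, adjusted p = 0.000115). The pools of a group were close together and the groups far apart. Mdm4, the partner of Mdm2 that holds p53 inactive, read 9.79 and 9.95 in irradiated cells, against 8.21 and 8.26 in unirradiated cells (1.64 ± 0.15, adjusted p = 0.000747), and Ppm1d, the phosphatase that switches the damage kinases off, rose by 1.31 ± 0.19 (adjusted p = 0.01). All of these are negative regulators of p53 or of its kinases. Trp53inp1, which promotes p53 phosphorylation and autophagy, had the largest rise of the list, with 9.77 and 9.80 in irradiated cells, against 6.16 and 6.19 in unirradiated cells (3.62 ± 0.15, adjusted p = 1.22e-05).

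The remaining arrest and feedback genes that rose cover several functions. Among genes of the cell cycle engine, Plk2, a polo-like kinase, read 8.72 and 8.94 in irradiated cells, against 5.78 and 4.91 in unirradiated cells (3.48 ± 0.50, adjusted p = 0.0105). Its unirradiated pools differed widely, and the call was lost without irradiated pool 1, irradiated pool 2 or unirradiated pool 2 (adjusted p up to 0.0961). Gtse1, which carries p53 out of the nucleus during G2, rose by 2.48 ± 0.17, Psrc1, a spindle protein, by 2.48 ± 0.15, and Ccng1, which encodes cyclin G1, by 1.62 ± 0.19 (adjusted p = 0.000236, 0.000115 and 0.00293). Phlda3, an inhibitor of the kinase AKT, rose by 2.83 ± 0.26, and Sesn2, a brake on mTORC1 that responds to stress, by 1.76 ± 0.17 (adjusted p = 0.000747 and 0.000874). Genes of DNA repair in the list were Polk, a translesion polymerase, with 8.78 and 8.77 in irradiated against 6.04 and 6.17 in unirradiated cells (2.67 ± 0.22), and Ercc5, an endonuclease of nucleotide excision repair, with 8.78 and 8.86 in irradiated against 6.79 and 6.30 in unirradiated cells (2.27 ± 0.17; adjusted p = 0.000477 and 0.000253).

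Of the 21 members that did not pass, several are among the best-known p53 targets. Btg2, an antiproliferative factor, read 8.78 and 9.52 in irradiated cells, against 7.997 and 8.261 in unirradiated cells (1.02 ± 0.38, adjusted p = 0.288), so that its groups did not overlap but its irradiated pools differed widely. Sesn1, a relative of Sesn2, changed by 0.07 ± 0.18, Rrm2b by 0.11 ± 0.24 and Ddb2, a sensor of ultraviolet damage, by 0.17 ± 0.15 (adjusted p = 0.922, 0.911 and 0.718). The row that carries the p21 gene names a second gene as well and is not used here. Leaving out 1 MP array at a time gave 13 to 17 rises in this list.

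Of 19 measured p53 targets that act in apoptosis, 9 rose and 0 fell (background 1.34% rising), with a list median of 0.80. Death receptors led: Fas, the receptor of Fas ligand, read 7.16 and 7.94 in irradiated WT MP cells, against 3.42 and 3.61 in unirradiated ones. All irradiated values were far above the unirradiated ones, which lay below the array median, so that the rise of 4.04 ± 0.24 (adjusted p = 0.000107) is a lower bound. Tnfrsf10b, the mouse receptor of TRAIL, read 7.76 and 7.98 in irradiated against 3.96 and 4.33 in unirradiated cells (at least 3.72 ± 0.16, adjusted p = 1.22e-05), and Eda2r, a receptor of ectodysplasin A2, read 6.19 and 7.23 in irradiated against 3.29 and 4.07 in unirradiated cells (at least 3.03 ± 0.33, adjusted p = 0.00197). The genes of these 3 receptors lay below the array median in both unirradiated pools and above it in both irradiated pools.

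Components of the mitochondrial route also rose. Pmaip1, which encodes the BH3-only protein Noxa, rose by 2.06 ± 0.19 and Ei24, an endoplasmic reticulum protein, by 2.13 ± 0.12 (adjusted p = 0.000747 and 0.000107). Apaf1, the scaffold of the apoptosome, read 8.99 and 9.18 in irradiated against 7.54 and 7.55 in unirradiated cells (1.54 ± 0.13, adjusted p = 0.000524), and Pidd1, the scaffold of the caspase-2 complex, rose by 1.47 ± 0.18 (adjusted p = 0.00473). Bbc3, which encodes the BH3-only protein Puma, read 5.78 and 5.76 in irradiated against 5.31 and 5.46 in unirradiated cells and did not pass (0.39 ± 0.15, adjusted p = 0.314). Outside the p53 lists, on the row with the highest mean of each gene, 0 of 8 pro-survival BCL2 family and inhibitor of apoptosis genes, 0 of 10 pro-apoptotic BCL2 family genes and 0 of 16 death receptor and caspase genes passed, with list medians of 0.15, -0.09 and 0.04. Lists this short would hold few calls at the share of all tested rows, 1.7%. A second row of Bnip3l, a mitochondrial protein of mitophagy in the pro-apoptotic list, did rise, with 7.29 and 8.05 in irradiated against 6.68 and 6.22 in unirradiated cells (1.23 ± 0.25, adjusted p = 0.0488). Mcl1, a survival factor of progenitors, changed by -0.14 (adjusted p = 0.802) and Bcl2 by -0.16 (adjusted p = 0.892). Without irradiated pool 2, 7 of the 19 p53 apoptosis genes were called.

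Of 17 measured kinases and regulators of p53, 2 passed, beside 1.7% of all tested rows. These were Mdm4 and the checkpoint kinase gene Chek2 (1.13 ± 0.15, limma, adjusted p = 0.0069). Atm, the kinase that responds to double-strand breaks, changed by -0.29 (adjusted p = 0.505) and Chek1 by -0.43 (adjusted p = 0.303). Chek2 lost its call without irradiated pool 2 and without unirradiated pool 2 (adjusted p up to 0.106 over all alternatives).

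Start-site sequences of p53 targets were read from the RefSeq promoter table (GRCm38.p6), which holds 250 bases before and 50 after each annotated start. The p53 response element was searched as its consensus of 20 bases, 2 adjoining half-sites without spacer, with at most 3 mismatches and none at the C and G of each half-site core; the consensus reads the same on both strands. In this window it occurred in 3 of 22 called p53 list genes (13.6%), in 6 of 26 uncalled ones (23.1%) and in 1.63% of all 27025 genes. The 3 called genes with a match are shown because they let a reader see the element beside a start site, with the 20 matching bases in capitals.
Gtse1, chr15:85859905-85859975, plus strand, 1 mismatch: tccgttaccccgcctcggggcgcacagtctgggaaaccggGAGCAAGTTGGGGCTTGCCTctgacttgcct
Ccng1, chr11:40755422-40755521, minus strand, 1 mismatch: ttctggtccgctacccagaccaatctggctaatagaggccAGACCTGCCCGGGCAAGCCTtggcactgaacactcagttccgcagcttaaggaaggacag
Aen, chr7:78895897-78895956, plus strand, 3 mismatches: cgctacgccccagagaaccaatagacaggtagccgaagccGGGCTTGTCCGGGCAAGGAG
Aen, an exonuclease that acts in apoptosis, was the weakest called member of its list, with 6.495 and 6.801 in irradiated cells, against 5.66 and 6.04 in unirradiated cells (0.80 ± 0.16, adjusted p = 0.0482). It kept its call in 1 of the 8 fits that left out an MP array, and lost it without irradiated pool 1, irradiated pool 2 or unirradiated pool 1 (adjusted p = 0.099, 0.355 and 0.128). A match describes letters in this window, and the absence of a match says nothing about binding elsewhere.

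**Figure D3:**
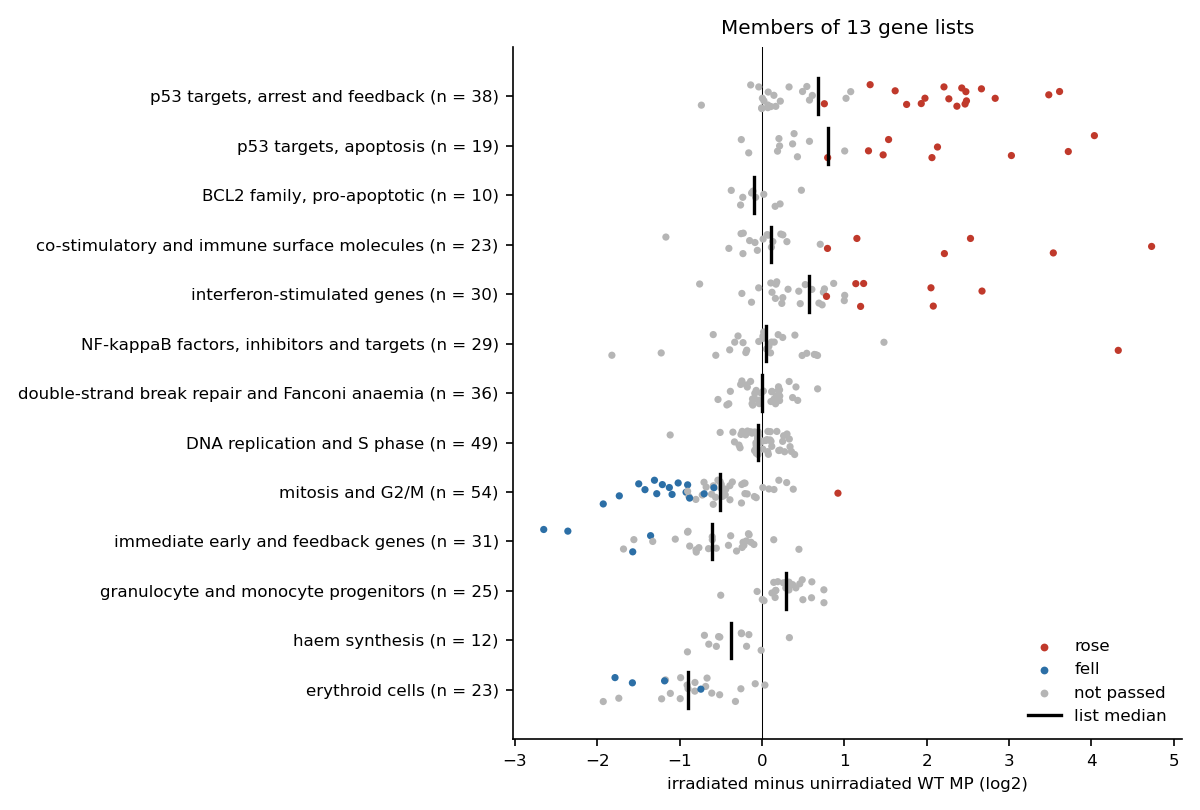
Change in WT MP cells (irradiated minus unirradiated, log2, horizontal axis) of each measured member of 13 gene lists, red where it rose, blue where it fell and grey where it did not pass, with a black bar at the list median. The 2 p53 lists lie to the right with medians of 0.69 and 0.80, and the mitosis, immediate early and erythroid lists to the left with medians of -0.50, -0.60 and -0.90.

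Some surface molecules that speak to immune cells rose strongly. Of 23 measured co-stimulatory and immune surface genes, 6 rose and 0 fell (background 1.34% rising). Like the other lists, this one was chosen with earlier results of these data known, so its count is no independent support. Its median was 0.11, and 10 members lay below the array median in both groups. After Tnfsf4, the largest was Cd80, the B7 ligand of CD28, with 7.59 and 8.02 in irradiated WT MP cells, against 4.24 and 4.29 in unirradiated ones (at least 3.54 ± 0.19, adjusted p = 7.28e-05, and 1.74 on its other row). Tnfrsf18, which encodes the receptor GITR, read 7.46 and 7.99 in irradiated against 5.39 and 4.99 in unirradiated cells (2.53 ± 0.25, adjusted p = 0.00114). Cd55, a membrane inhibitor of complement, read 8.56 and 8.62 in irradiated against 6.44 and 6.31 in unirradiated cells (2.22 ± 0.21, adjusted p = 0.000806), and Icam1, an adhesion molecule, rose by 1.15 ± 0.13 (adjusted p = 0.00214). The irradiated pools lay above the unirradiated pools in each. The sixth member, H60b, a ligand of NKG2D, passed the test but lay below the array median in both groups, so that no size is given. The best-known partners of these genes did not pass: Cd86 changed by 0.23 (adjusted p = 0.787) and Cd274, which encodes PD-L1, by 0.71 (adjusted p = 0.228).

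NF-kappaB is a second transcription factor that DNA damage can activate. Of 29 measured factors, inhibitors and targets, 1 rose (Tnip3) and 0 fell (background 1.34% rising), with a median of 0.06. A list of this size would hold few calls at that share, so the count cannot show a lack of response. Nfkbia, the feedback inhibitor that NF-kappaB itself switches on, changed by 0.01 (adjusted p = 0.994), and Tnfaip3 by -1.22 (adjusted p = 0.192). Cxcl10, a chemokine that interferon also raises, had the next largest value at 1.48 (adjusted p = 0.208).

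Interferon-stimulated genes rose in part. Of 30 measured genes, 7 rose and 0 fell (background 1.34% rising). Above 0 were 26 values, and the list median was 0.57 against -0.04 over all tested rows. Mx1, a gene of the GTPase family, read 6.68 and 6.85 in irradiated WT MP cells, against 4.15 and 4.03 in unirradiated ones (at least 2.67 ± 0.14, adjusted p = 7.28e-05). Its neighbour and relative Mx2 read 6.48 and 6.56 in irradiated against 4.67 and 4.21 in unirradiated cells (at least 2.08 ± 0.23, adjusted p = 0.00226). Usp18, which removes ISG15 from proteins and damps the interferon receptor, rose by 1.14 ± 0.14 (adjusted p = 0.00374), and Ifit1, a sensor of foreign RNA caps, by at least 1.20 ± 0.18 (adjusted p = 0.0132). Rtp4 read 7.41 and 7.94 in irradiated against 6.10 and 5.14 in unirradiated cells (2.05 ± 0.37, adjusted p = 0.0277), with a wide gap between its unirradiated pools. Other members of the same set did not pass: Ifit3 changed by 0.16 (adjusted p = 0.842), Stat2, a transducer of the interferon signal, by -0.04 (adjusted p = 0.958) and Irf7 by 0.53 (adjusted p = 0.389). The count fell to 3 without irradiated pool 2 and to 3 without unirradiated pool 2, and was 9 without unirradiated pool 1.

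DNA repair genes outside the p53 lists gave few calls. As 1.7% of all tested rows were called, 0 calls in a list of this size cannot show that its genes respond less than others. In the list of double-strand break repair and Fanconi anaemia 0 of 36 measured genes passed, with values of -0.53 to 0.68 and a median of 0.004, and 0 of 9 translesion polymerases and partners passed. Brca1 changed by 0.33 (adjusted p = 0.535), Rad51c by 0.12 (adjusted p = 0.847) and the end-joining gene Xrcc5 by -0.40 (adjusted p = 0.491). Of 36 excision repair and PARP family genes, 3 rose: Nthl1, a glycosylase of base excision repair, by 0.96 ± 0.15, Tnks2, a tankyrase, by 0.75 ± 0.12, and Parp11 by at least 1.24 ± 0.22 (adjusted p = 0.0145, 0.0176 and 0.0243). Few of these 3 calls were kept: 0 members rose without irradiated pool 1 and 0 without unirradiated pool 2, and 1 without irradiated pool 2 or unirradiated pool 1. Parp1, the main nuclear poly(ADP-ribose) polymerase, read 8.46 and 8.47 in irradiated against 8.42 and 8.21 in unirradiated cells (0.15 ± 0.14, adjusted p = 0.751), and Parp2 8.40 and 8.36 in irradiated against 8.40 and 7.97 in unirradiated cells (0.19 ± 0.17, adjusted p = 0.726).

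Genes of mitosis fell. Of 54 measured genes of mitosis and the G2/M transition, 15 fell (background 0.361%) and 1 rose, 47 values were below 0 and the list median was -0.50. Aspm, which organises spindle poles, read 5.42 and 5.10 in irradiated WT MP cells, against 6.99 and 7.39 in unirradiated ones (-1.93 ± 0.23, adjusted p = 0.00401). Plk1, the kinase that drives mitotic entry, read 5.83 and 5.18 in irradiated against 6.974 and 7.501 in unirradiated cells (-1.73 ± 0.23, adjusted p = 0.00628). Cenpf, a kinetochore protein, read 6.59 and 6.55 in irradiated against 8.12 and 8.02 in unirradiated cells (-1.50 ± 0.13, adjusted p = 0.000636). In each of these genes both irradiated pools lay at least 1 log2 unit below both unirradiated pools. Aurka, the Aurora A kinase of the centrosome, read 6.94 and 6.75 in irradiated against 8.27 and 8.26 in unirradiated cells (-1.42 ± 0.15, adjusted p = 0.00173), and Cdc25c, the phosphatase that activates CDK1, changed by -1.12 ± 0.15 (adjusted p = 0.00609). The other members called, Cenpa, Kpna2, Prc1, Kif23, Hmmr, Anln, Ccnb2, Tpx2, Nusap1 and Kif11, fell by 0.58 to 1.31. The list member that rose was Kif18b, a kinesin that shortens spindle microtubules (0.92 ± 0.18, adjusted p = 0.0395), and it lost its call without any 1 of the 4 WT pools (adjusted p up to 0.306).

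The other 38 members did not pass, and several of them had changes of about the size of called ones. Cdk1, the mitotic kinase itself, changed by -0.72 (adjusted p = 0.0532), Bub1b by -0.70 (adjusted p = 0.0538) and Top2a by -0.07 (adjusted p = 0.926). The count of falls was 5 without irradiated pool 1, 4 without irradiated pool 2, 9 without unirradiated pool 1 and 11 without unirradiated pool 2. Genes of S phase gave no calls: 0 of 49 measured replication genes passed, beside 1.7% of all tested rows, with a median of -0.04. Ccne1, which encodes cyclin E1, had the lowest value at -1.11 (adjusted p = 0.107). Pcna, the sliding clamp of replication, changed by -0.09 (adjusted p = 0.861) and Mcm2 by -0.05 (adjusted p = 0.935). Of 20 cyclin D, CDK inhibitor and retinoblastoma family genes, 1 passed: Rbl2, which encodes the pocket protein p130 of the DREAM repressor complex. Rbl2 rose with 7.93 and 8.02 in irradiated against 6.97 and 6.49 in unirradiated cells (1.25 ± 0.17, limma, adjusted p = 0.00691). Over all alternatives its change was 1.01 to 1.48. Its call was lost in the fit over all 16 arrays, with all rows tested and without either irradiated pool. Outside the lists, Prr11, a proline-rich protein of the late cell cycle, read 5.94 and 5.68 in irradiated cells, against 8.45 and 8.47 in unirradiated cells (-2.65 ± 0.26, adjusted p = 0.00114). Depdc1a read 2.76 and 1.93 in irradiated against 5.189 and 4.699 in unirradiated cells, a fall of at least 2.60 ± 0.33 because the irradiated level is below the array median (adjusted p = 0.00544). A second row of Depdc1a changed by -1.25 without passing (adjusted p = 0.0721).

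The sequences around the starts of the mitotic genes with the largest falls are shown because they carry the elements that the DREAM complex and the factor NF-Y are known to bind. A CHR was searched as TTTGAA or TTTAAA and a CCAAT box as CCAAT, on both strands, and matches were allowed to overlap. A CHR occurred in 12 of 13 mitotic genes that fell and are in the promoter table (92.3%), in 20 of 31 other mitosis genes (64.5%), in 12 of 41 replication genes (29.3%) and in 30.6% of all 27025 genes. Both elements together occurred in 11 of 13 (84.6%), 16 of 31 (51.6%), 8 of 41 (19.5%) and 12.2% in the same order. Each sequence runs from 120 bases before to 30 bases after the start (GRCm38.p6, RefSeq), in the direction of transcription, with CHR and CCAAT matches in capitals, ATTGG being CCAAT on the other strand.
Aspm, chr1:139454653-139454802, plus strand: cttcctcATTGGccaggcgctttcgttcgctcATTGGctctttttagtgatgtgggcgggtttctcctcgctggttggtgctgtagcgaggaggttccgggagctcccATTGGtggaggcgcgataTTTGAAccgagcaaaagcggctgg
Plk1, chr7:122159315-122159464, plus strand: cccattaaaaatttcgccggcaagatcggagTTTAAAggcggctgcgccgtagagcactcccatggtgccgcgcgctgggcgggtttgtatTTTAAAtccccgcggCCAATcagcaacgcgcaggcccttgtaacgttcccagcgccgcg
Cenpf, chr1:189688057-189688206, minus strand: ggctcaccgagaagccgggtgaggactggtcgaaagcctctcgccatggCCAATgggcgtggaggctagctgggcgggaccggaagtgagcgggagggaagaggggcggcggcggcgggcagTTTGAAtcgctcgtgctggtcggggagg
Aurka, chr2:172370541-172370690, minus strand: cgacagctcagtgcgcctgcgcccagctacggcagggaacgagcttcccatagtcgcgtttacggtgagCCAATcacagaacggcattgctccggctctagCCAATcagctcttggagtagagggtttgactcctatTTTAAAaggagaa
In Aspm, Cenpf and Aurka a CHR lies 3 to 18 bases into the transcript, counted from 1 at the annotated start, with a CCAAT box upstream of it. The nearest CHR of Plk1 begins at base -29, and another begins at base 31 in the transcript, just beyond the printed sequence.

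Some immediate early genes, which mitogens switch on within minutes, fell as well. Of 31 measured immediate early and feedback genes, 4 fell (background 0.361%) and 27 did not pass. Below 0 were 29 values, and the list median was -0.60 against -0.04 over all tested rows. Fosb, an AP-1 subunit, read 6.35 and 6.85 in irradiated WT MP cells, against 8.94 and 9.56 in unirradiated ones (-2.65 ± 0.44, adjusted p = 0.0181). Klf6, a zinc finger factor, read 5.99 and 6.46 in irradiated against 8.84 and 8.32 in unirradiated cells (-2.36 ± 0.33, adjusted p = 0.0084). Fos, the namesake of the family, read 5.88 and 5.86 in irradiated against 7.34 and 7.54 in unirradiated cells (-1.57 ± 0.20, adjusted p = 0.00603), and Dusp1, a phosphatase that switches MAP kinases off, read 7.65 and 7.97 in irradiated against 9.18 and 9.15 in unirradiated cells (-1.35 ± 0.23, adjusted p = 0.0241). The groups did not overlap in these 4 genes. Egr1 read 6.80 and 7.72 in irradiated against 7.65 and 7.68 in unirradiated cells and did overlap (-0.41 ± 0.45, adjusted p = 0.787), and Jun changed by -0.80 (adjusted p = 0.44). Leaving out 1 pool moved the count: it was 0 without irradiated pool 1, 1 without irradiated pool 2, 2 without unirradiated pool 2, and 6 when either unirradiated Parp-2-/- pool was left out.

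Stress programmes other than p53 gave few calls. With 1.7% of all tested rows called, lists of this size would hold few calls in any case. Of 25 ATF4 and unfolded protein genes 1 rose, Ddit4, an inhibitor of mTORC1 (0.67 ± 0.12, adjusted p = 0.0308), and its paralogue Ddit4l, which was outside the lists, read 7.73 and 7.51 in irradiated against 4.79 and 5.13 in unirradiated cells (2.67 ± 0.17, adjusted p = 0.00014). The call of Ddit4 was lost without either irradiated or either unirradiated WT pool, and Ddit4l was called in every alternative tried. None of 23 NRF2 genes and none of 11 heat shock genes passed. Of 31 Myc and ribosome biogenesis genes 1 rose, Utp20 (0.90 ± 0.11, adjusted p = 0.00524), while Myc read 9.64 and 9.37 in irradiated against 10.52 and 10.23 in unirradiated cells without passing (-0.87 ± 0.18, adjusted p = 0.052). The values of ribosomal protein genes lay between -0.19 and 0.15, with 0 of 21 called.

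Some erythroid genes fell. Of 23 measured erythroid genes, 4 fell (background 0.361%) and 0 rose, 22 values were below 0 and the list median was -0.90. Tfrc, the transferrin receptor that takes up iron, read 7.67 and 7.65 in irradiated WT MP cells, against 8.81 and 8.87 in unirradiated ones (-1.18 ± 0.17, adjusted p = 0.00878). Ermap, a red cell surface protein, read 6.84 and 6.90 in irradiated against 8.11 and 9.20 in unirradiated cells (-1.78 ± 0.31, adjusted p = 0.0228), Aqp1, a water channel, 5.95 and 6.19 in irradiated against 7.28 and 8.01 in unirradiated cells (-1.57 ± 0.28, adjusted p = 0.0257), and Icam4, a blood group antigen, 6.05 and 6.05 in irradiated against 6.82 and 6.76 in unirradiated cells (-0.74 ± 0.15, adjusted p = 0.0426). In Ermap and Aqp1 the unirradiated pools differed widely from each other. Gata1, the master factor of the branch, changed by -0.90 (adjusted p = 0.219) and Klf1 by -1.11 (adjusted p = 0.269). Gfi1b, a repressor needed by red cells and megakaryocytes, was the called member of the megakaryocyte list, with 6.21 and 6.28 in irradiated against 7.34 and 7.68 in unirradiated cells (-1.26 ± 0.14, adjusted p = 0.00293), and it was called in every alternative tried.

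The erythroid counts depended on the pools. The mean level of the erythroid list was 5.95 and 6.02 in the irradiated pools, against 6.53 and 7.26 in the unirradiated pools. Unirradiated pool 2 was the highest, and unirradiated pool 1 lay between it and the irradiated pools. Without unirradiated pool 1, 11 of 23 genes fell with a median of -1.29, and without unirradiated pool 2, 0 fell with a median of -0.46; without either irradiated pool 0 fell. The granulocyte and monocyte progenitor list moved the other way in size, with means of 8.32 and 8.30 in irradiated against 8.23 and 7.82 in unirradiated cells. Of its 25 values 23 were above 0, with a median of 0.30, or 0.11 without unirradiated pool 2. In this list 0 genes were called, beside 1.7% of all tested rows, and 0 calls in a list of this size cannot show a lack of response. How far the balance of erythroid against granulocytic cells in the pools shaped these values, the falls of Tlcd4, Ctse, Nxpe2 and Aqp9 given next or those of the mitosis list was not tested.

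**Figure D4:**
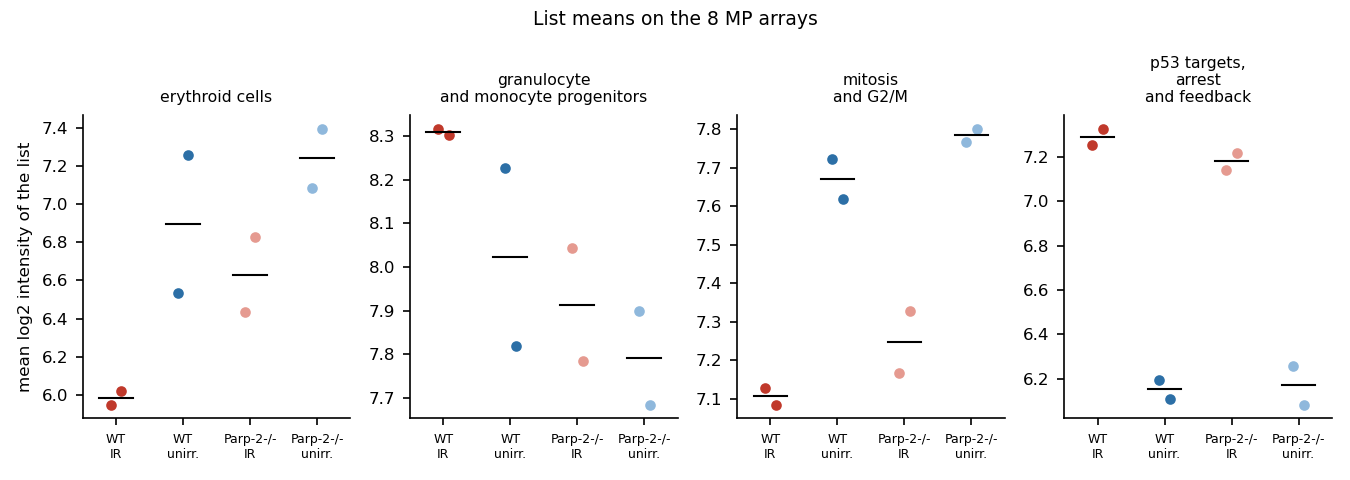
Mean log2 intensity of 4 gene lists (vertical axis) on the 8 MP arrays, with irradiated left of unirradiated pools in each genotype, a point per pool and a bar at the mean of the 2 pools. The p53, mitosis and erythroid lists separate irradiated from unirradiated pools in both genotypes. The erythroid means of the unirradiated WT pools (6.53 and 7.26) lie far apart from each other. Each panel has its own vertical range.

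Further large falls came in genes whose unirradiated pools disagreed. Tlcd4, a membrane protein, read 3.37 and 3.63 in irradiated WT MP cells, against 5.70 and 7.48 in unirradiated ones (a fall of at least 3.10 ± 0.50, adjusted p = 0.0166). Ctse, the protease cathepsin E, read 7.35 and 7.61 in irradiated against 9.20 and 10.13 in unirradiated cells (-2.18 ± 0.43, adjusted p = 0.0418), and Nxpe2 read 4.47 and 4.79 in irradiated against 6.17 and 7.22 in unirradiated cells (-2.07 ± 0.42, adjusted p = 0.0477). In each, unirradiated pool 2 was the highest of the 4 arrays. Aqp9, a channel for water and glycerol, was steadier, with 5.97 and 6.07 in irradiated against 7.75 and 8.29 in unirradiated cells (-2.004 ± 0.185, adjusted p = 0.000806). Ctse and Nxpe2 lost their calls without either irradiated pool and without unirradiated pool 2, where their changes were -1.71 and -1.54, and Tlcd4 lost its call without either irradiated pool.

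Markers of other populations gave few calls, beside 1.7% of all tested rows, and lists this short cannot show a lack of response. Among 27 stem cell genes 1 rose, Ctnnal1 (0.94 ± 0.18, adjusted p = 0.0364), and 1 fell, Gata2 (-0.71 ± 0.13, adjusted p = 0.034). Both lost their calls without either irradiated pool (adjusted p up to 0.283), Ctnnal1 also without unirradiated pool 2 and Gata2 also without unirradiated pool 1. In the lists of lymphoid priming, B lymphocytes, T and NK cells, macrophages, dendritic cells and endothelium 0 of 16, 15, 19, 19, 17 and 17 genes passed. Itgam, the myeloid integrin CD11b, rose by at least 0.76 ± 0.14 as the 1 called gene of 17 in the neutrophil list, and Ms4a2, the beta chain of the IgE receptor, by at least 1.10 ± 0.16 in the mast cell and basophil list (adjusted p = 0.0357 and 0.0116). Itgam lost its call without any 1 of the 4 WT pools (adjusted p up to 0.252), and Ms4a2 without either irradiated pool and without unirradiated pool 2 (adjusted p up to 0.105). Haem synthesis had 0 of 12 called and a median of -0.38.

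The series also asks whether loss of Parp-2 alters the response. In Parp-2-/- MP cells 365 rows were called (1.59%), of which 265 rose (1.15%) and 100 fell (0.436%). Rows that rose in both numbered 200, which is 65.1% of the WT rises and 75.5% of the Parp-2-/- rises, and rows that fell in both numbered 38, which is 45.8% of the WT falls and 38% of the Parp-2-/- falls. No row was called in opposite directions, and 388 of the 390 rows called in WT had the same sign in Parp-2-/- cells. Over the 307 WT rises the median change was 1.14 in WT and 0.97 in Parp-2-/- cells, and over the 83 WT falls -1.02 in WT and -0.83 in Parp-2-/- cells; the rows were chosen on the WT values, which favours the larger WT figure. The test of the difference itself called 0 of 22961 rows (0%), with a smallest adjusted p of 1 and 708 rows at an unadjusted p under 0.05. Its median SE was 0.21, so that small differences were not detectable with 2 pools per group.

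The leading members are given gene by gene. Mdm2 rose by 2.21 ± 0.14 in WT and 2.22 ± 0.14 in Parp-2-/- MP cells, a difference of -0.01 with a 95% interval of -0.45 to 0.42. Mybl1 rose by 3.31 in WT and 3.28 in Parp-2-/- cells (difference 0.03, interval -0.42 to 0.47). The rises of Fas were at least 4.04 in WT and at least 3.94 in Parp-2-/- cells, and those of Tnfsf4 at least 4.73 in WT and at least 3.99 in Parp-2-/- cells, so that no difference is given for them. Tnfrsf10b rose by at least 3.72 in WT and by 2.60 in Parp-2-/- cells. Prr11 fell by 2.65 in WT and by 1.42 in Parp-2-/- cells (difference -1.23, interval -2.07 to -0.39). That interval leaves out 0, but it is not adjusted for the 22961 rows, and the adjusted p was 1. In the lists, 17 of 38 arrest targets rose in WT and 18 in Parp-2-/- cells, and 9 of 19 apoptosis targets rose in each, with apoptosis list medians of 0.80 in WT and 0.36 in Parp-2-/- cells. Of 30 interferon-stimulated genes 7 rose in WT and 4 in Parp-2-/- cells, and of 36 excision repair and PARP family genes 3 rose in WT and 0 in Parp-2-/- cells. Of 31 immediate early genes 4 fell in WT and 5 in Parp-2-/- cells. These differences between list counts were not tested. Of 54 mitosis genes 15 fell in WT and 14 in Parp-2-/- cells. Of 23 erythroid genes 4 fell in WT and 3 in Parp-2-/- cells, with list means of 6.43 and 6.83 in irradiated Parp-2-/- pools, against 7.09 and 7.40 in unirradiated ones.

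**Figure D5:**
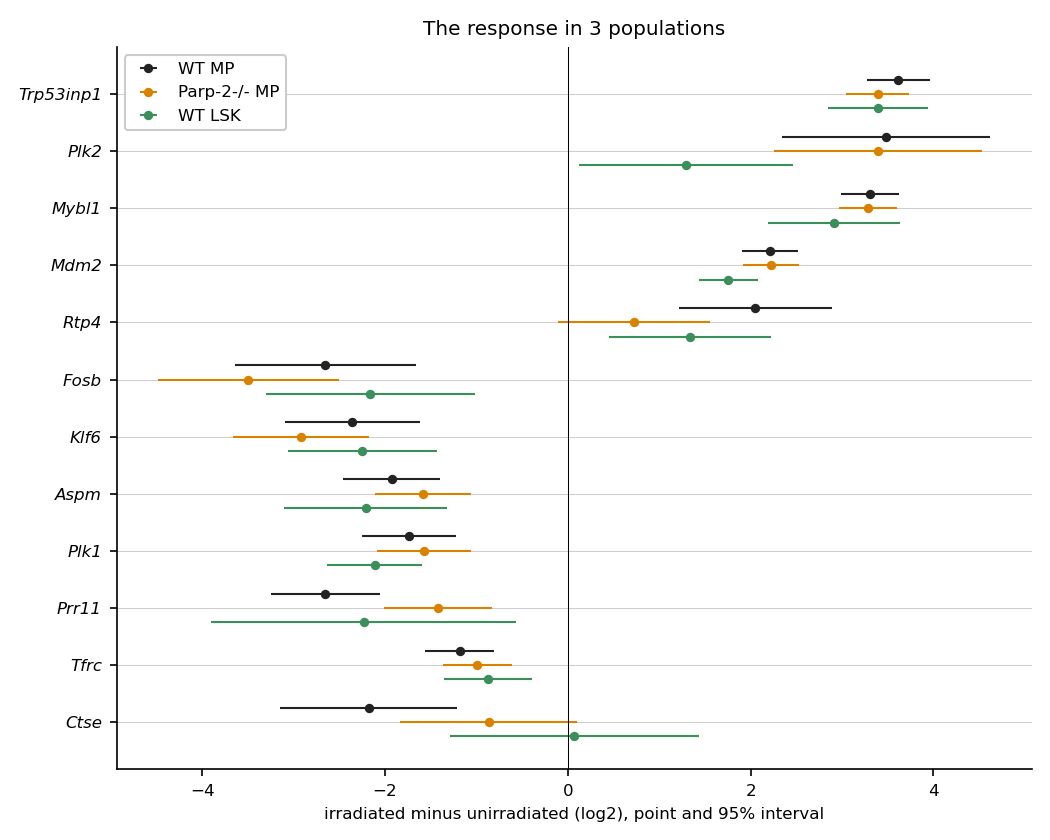
Radiation response (irradiated minus unirradiated, log2, horizontal axis) of 12 genes in WT MP cells (black), Parp-2-/- MP cells (orange) and WT LSK cells (green), as points with 95% intervals from limma, unadjusted. None of these genes lies below the array median throughout a group; Mdm2 is at 2.21 in WT and 2.22 in Parp-2-/- MP cells, and Plk2 is at 3.48 in WT MP and 1.29 in WT LSK cells.

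The response of WT MP cells was compared with that of WT LSK cells in the same way, in a fit of all 16 arrays because the comparison needs the LSK arrays. That fit gives both cell types 1 shared estimate of spread although LSK arrays vary more, and the intervals below are not adjusted for the number of rows. Of the 307 rows that rose in WT MP cells 289 had the same sign in WT LSK cells, and of the 83 that fell 70 did. The median change over the rises was 1.14 in MP and 0.95 in LSK cells, and over the falls -1.02 in MP and -0.58 in LSK cells. These rows were chosen on the WT MP values, which favours the larger MP figures. The difference between the cell types was called for 0 rows (0%), with a smallest adjusted p of 0.419, 1272 rows at an unadjusted p under 0.05 and a median SE of 0.29. Trp53inp1 rose by 3.62 in MP and 3.40 in LSK cells (difference 0.22, interval -0.55 to 0.99), and Plk1 fell by 1.73 in MP and by 2.11 in LSK cells (difference 0.38, interval -0.35 to 1.11). Plk2 rose by 3.48 in MP cells and had 1.29 ± 0.54 in LSK cells (difference 2.19, interval 0.54 to 3.84). On the row of Cd80 that lay above the array median in part of each group, the rise was 1.74 in MP and 1.78 in LSK cells (difference -0.04, interval -1.07 to 0.98); on its other row the rises were at least 3.54 in MP and at least 2.14 in LSK cells. Tlcd4 fell by at least 3.10 in MP cells, and in LSK cells it lay below the array median in both groups, so that no size is given there. The erythroid list had a median of -0.90 in MP and -0.19 in LSK cells, and the mitosis list -0.50 in MP and -0.61 in LSK cells.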

How the data were processed

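Expression was measured on Affymetrix Mouse Gene 1.0 ST arrays, which read whole transcripts with many probes per gene. The deposited values are log2 intensities that the authors summarised with RMA, per the submitters' processing notes, which also name limma, affy 2.10 and R 2.15 without saying what each did. The log base was read from the range of the values, and which arrays were normalized together is not given in the sources used here.

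Rows with at least 1 gene symbol were tested (22961 of 34760). Group means were fitted with limma 3.58.1 in R 4.3.3 (lmFit and eBayes) over the 8 MP arrays, and over all 16 arrays for the comparison with LSK cells. Benjamini-Hochberg adjustment ran over all tested rows with a threshold of 0.05, and the code was first tested on simulated data. A row below the array median on all arrays of a group was taken as not shown to be above background there, so that its change is a lower bound, and no size is given where both groups are. A gene with several rows is represented in a list by the row with the highest mean. The number of arrays limits the precision, and with 2 pools per group p-values measure the spread between pools.

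Genes were named by a rule: the 16 largest rises and 16 largest falls whose groups do not overlap, up to 4 members with the largest change in each list, and a few fixed genes. Other genes named, including members that did not pass, were chosen after their values were seen. The members and gene lists were chosen with earlier results of these data known. The row of the p21 gene names 2 genes and is not used. Alternatives were the set of arrays and of rows fitted, a filter on dim rows, further quantile normalization, an intensity trend, the pool number as a block and leaving out each array. The labels do not say whether equally numbered pools share mice. The deviations of equally numbered pools correlated at -0.029 to 0.227 among the MP groups and at -0.005 to 0.111 between MP and LSK pools of the same group, and the arrays were fitted unpaired.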

Additional observations from a re-analysis of the deposited data

How the results depend on the processing

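The counts depended on the arrays and rows that entered the fit. Of the 390 rows called in WT MP cells, the fit over all 16 arrays gave 154 and testing all 34760 rows gave 132, and in Parp-2-/- MP cells, with 365 called, these gave 135 and 104. The other planned settings gave 286 to 514 in WT cells, the highest of them with the pool number as a replicate block (370 higher and 144 lower, 381 shared with the 390). With that block the counts were 431 in Parp-2-/- cells and 0 for each difference. Leaving out 1 array gave 112 to 474 in WT cells and 116 to 418 in Parp-2-/- cells. The genotype difference gave 0 to 1 calls when an array was left out: the Y-linked Eif2s3y without unirradiated WT MP pool 1 (difference -4.25), which leaves pool 2 with its Y-linked transcripts as the whole group, and a row of 2 symbols without irradiated Parp-2-/- MP pool 1. The cell type difference gave 0 to 9, with 9 without unirradiated WT LSK pool 1 and 2 without pool 2. Unirradiated WT MP and LSK pools 2 alone share Y-linked transcripts, so a fit that pairs MP and LSK pools of one number, chosen after seeing the data, was added; this replicate block gave 0 calls, a smallest adjusted p of 0.0501 and 1298 rows at an unadjusted p under 0.05 (limma). The Parp2 level difference was 1.339 to 1.549 with an array left out, where its call was lost without either irradiated Parp-2-/- pool (adjusted p = 0.107 and 0.0783) or either irradiated WT pool (0.0733 and 0.081), and it was 1.444 with all rows tested, where the call was also lost (adjusted p = 0.196, limma). Of 115 genes checked, 76 were called, of which 30 kept the call in all 15 settings, 46 lost it in some and 0 changed sign; of 39 not called, 9 passed in some setting. Uncalled genes near 0 changed sign when an array was left out: Bcl2 (-0.612 to 0.287), Bnip3l on its brighter row (-0.003 to 0.322), Egr1 (-0.869 to 0.056), Ifit3 (-0.13 to 0.457), Mcl1 (-0.323 to 0.047), Mcm2 (-0.201 to 0.094), Nfkbia (-0.283 to 0.307, and -0.033 with quantile normalization), Parp2 (-0.017 to 0.403), Pcna (-0.203 to 0.024), Rad51c (-0.107 to 0.343), Rrm2b (-0.165 to 0.382), Sesn1 (-0.193 to 0.335), Stat2 (-0.202 to 0.122) and Top2a (-0.347 to 0.206). The cause of these shifts was not tested. Rows below the array median in both groups carry no usable size.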

Other observations

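Several large changes lay outside the gene lists, and all of those named here except Plod2 were chosen after their values were seen. Plod2, a collagen-modifying enzyme, read 7.23 and 7.44 in irradiated WT MP cells, against 4.75 and 4.76 in unirradiated ones (at least 2.58 ± 0.20, limma, adjusted p = 0.00044). S100a4, a calcium-binding protein, read 8.34 and 8.51 in irradiated cells, against 6.29 and 5.91 in unirradiated cells (2.32 ± 0.17, adjusted p = 0.000245), and Alox5, which starts leukotriene synthesis, read 6.49 and 6.59 in irradiated cells, against 4.61 and 4.51 in unirradiated cells (at least 1.98 ± 0.17, adjusted p = 0.000655). Among falls, Hemgn, a nuclear protein of blood progenitors, changed by -1.42 ± 0.20 (adjusted p = 0.00904) and the linker histone gene H1f2 by -1.20 ± 0.22 (adjusted p = 0.0327).

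In the order of protein-coding genes of GRCm38.p6, which held 358 called genes, 14 pairs of neighbouring genes were both called, of which 10 pairs both rose and 1 pair both fell. Because 307 of the 390 called rows rose, pairs of rising genes would be the most frequent kind in any case. The number of pairs expected without any link between neighbours was not worked out, so these pairs are only described. Apaf1 rose by 1.54 and its neighbour Ikbip by 1.29, and Slfn8 rose by 1.67 beside Slfn2 at 1.75. Neighbours also went opposite ways: Hmmr changed by -1.02 beside Nudcd2 at 1.15, and Icam1 by 1.15 beside Icam4 at -0.74.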
